A study of Homo sapiens with 9 samples.

Results

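The MAGE family genes were followed in MDA-MB-231, a human cell line of triple-negative breast cancer, after knockdown of ASAH1, the gene of acid ceramidase, a lysosomal enzyme that splits ceramide. Members were the entries whose symbol begins with MAGE, a subfamily letter from A to L and a digit. This gave 37 of the 26485 entries, namely 35 single MAGE genes, the readthrough entry MAGEA10-MAGEA5 and the antisense entry MAGEA8-AS1. Type I (subfamilies A, B and C) held 26 genes, and type II (subfamilies D, E, F, H and L) held 9. Necdin (NDN) and NSMCE3, which also carry a MAGE domain, have other symbols and were outside this rule. The 9 RNA-seq libraries came from cells stably expressing a nonspecific (NS) shRNA, ASAH1 shRNA #1 or ASAH1 shRNA #2, with 3 libraries in each group. All groups were grown in DMEM with fetal bovine serum and antibiotics, all carried an integrated hairpin, and no untransduced cells were compared. The study calls the libraries biological replicates. No source said that they came from separately transduced cultures, so the p-values measure only the spread between these libraries, which may be technical.

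MAGE proteins share a MAGE homology domain, through which many of them bind RING-type E3 ubiquitin ligases and alter what those ligases act on. Type I genes lie on the X chromosome and are called cancer-testis genes, because in adults they are mostly restricted to germ cells of the testis and are reactivated in tumours, where their peptides are recognised by T cells. Their silence in other tissues is known to depend on promoter DNA methylation. Type II genes are expressed in many normal tissues and are not cancer-testis genes.

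Reads on genes ranged from 31.0 to 34.9 M per library with NS shRNA, from 23.8 to 39.8 M with ASAH1 shRNA #1 and from 35.7 to 49.7 M with ASAH1 shRNA #2. ASAH1 itself fell by 1.76 on the log2 scale with ASAH1 shRNA #1 (adjusted p = 9.49e-09) and by 2.63 with ASAH1 shRNA #2 (adjusted p = 5.42e-10, both from limma). The line's markers VIM, CD44 and AXL stood at means of 746 to 2039 CPM (read counts scaled to the library size after TMM normalisation) in every group, and ESR1 and PGR had at most 2 reads in any library. ERBB2, the receptor gene that is not amplified in triple-negative tumours, stood at means of 61.5 to 98.5 CPM. GATA3, also on the list of line markers, had 401 to 1195 reads per library. Its log2 fold change was -0.48 with shRNA #1 (adjusted p = 0.000145) and 0.25 with shRNA #2 (adjusted p = 0.00619, both from limma). Of the fibroblast markers, COL1A1 had 545 to 965 reads, COL1A2 108 to 757, LUM 31 to 140 and DCN at most 3. Germ cell markers were nearly absent. Of 12 of them, 11 had at most 3 reads in every library, and the protamine genes PRM1 and PRM2 and the spermatid genes TNP1 and ODF1 were at 0 throughout. The exception was MAEL, a piRNA pathway gene that some tumour lines also express, with 92 to 178 reads. Summed over the 12 markers, the level was 4.57 to 5.17 CPM with NS shRNA, 3.77 to 4.34 with shRNA #1 and 3.20 to 3.75 with shRNA #2. MAEL alone, at means of 4.71, 4.01 and 3.49 CPM in these groups, made up nearly all of this sum. Its log2 fold change was -0.24 with shRNA #1 (adjusted p = 0.0718) and -0.43 with shRNA #2 (adjusted p = 0.00856, both from limma).

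Type I genes had almost no counted reads in the control cells. Of the 26, 9 had no read in any of the 9 libraries, 8 had 1 to 3 reads over all libraries together, and 9 had more. Summed over the 26 genes, the NS shRNA libraries held 13, 17 and 26 reads, the ASAH1 shRNA #1 libraries 31, 47 and 31, and the ASAH1 shRNA #2 libraries 1276, 1418 and 1872. The 3 groups did not overlap in this sum, and the libraries with shRNA #2 stood far above all others. With shRNA #2, from 90.2% to 91.6% of the counted type I reads in a library belonged to a single gene, MAGEA12. Copies that a read cannot place uniquely, such as MAGEA2, MAGEA2B, MAGEA9 and MAGEA9B, are among those without a read, and their expression cannot be judged.

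MAGEA12 (ENSG00000213401, chromosome X from 152733757 to 152737669 on the plus strand of hg38) belongs to the MAGEA cluster at the end of the long arm. It had 0, 1 and 0 reads with NS shRNA, 4, 11 and 8 reads with ASAH1 shRNA #1, and 1151, 1291 and 1715 reads with ASAH1 shRNA #2. No library of one group reached the range of another. MAGEA12 stood at 35.4 ± 1.34 (SD, n = 3) CPM with shRNA #2 and at 0.221 ± 0.0535 (SD, n = 3) with shRNA #1. Over the pooled reads, the level with shRNA #2 was 3623 times that with NS shRNA, but with only 1 read in the control the 95% counting interval ran from 650 to 143136 (exact conditional binomial, counting error only). Compared with a control level of 3 reads per library, the level with shRNA #2 was 400-fold and that with shRNA #1 was 2.47-fold. The pooled ratio for shRNA #1 was 23.2, with a counting interval from 3.76 to 955. In bulk RNA, more cells with the transcript and more transcript per cell cannot be told apart, as fewer cells of a type and less RNA per cell cannot.

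MAGEC2 (ENSG00000046774, chromosome X from 142202342 to 142205290, minus strand) is also known as the cancer-testis antigen CT10, and its protein binds the ligase TRIM28. It had 0, 1 and 0 reads with NS shRNA, 16, 18 and 9 reads with ASAH1 shRNA #1, and 51, 65 and 67 reads with ASAH1 shRNA #2. The 3 groups were again separate. The pooled ratio to NS shRNA was 43.3 with shRNA #1 (counting interval 7.37 to 1751) and 159 with shRNA #2 (28.3 to 6334). Compared with a control level of 3 reads per library, these levels were 5.03-fold and 17.8-fold.

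MAGEC1 (ENSG00000155495, chromosome X from 141903894 to 141909374, plus strand), known as CT7 in myeloma, had 0, 0 and 3 reads with NS shRNA, 4, 5 and 4 reads with ASAH1 shRNA #1, and 41, 37 and 56 reads with ASAH1 shRNA #2. The groups did not overlap, but 1 NS shRNA library came within 1 read of the lowest shRNA #1 library. The pooled ratio to NS shRNA was 4.37 with shRNA #1 (counting interval 1.20 to 23.9) and 38.9 with shRNA #2 (13.0 to 191).

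**Figure D1:**
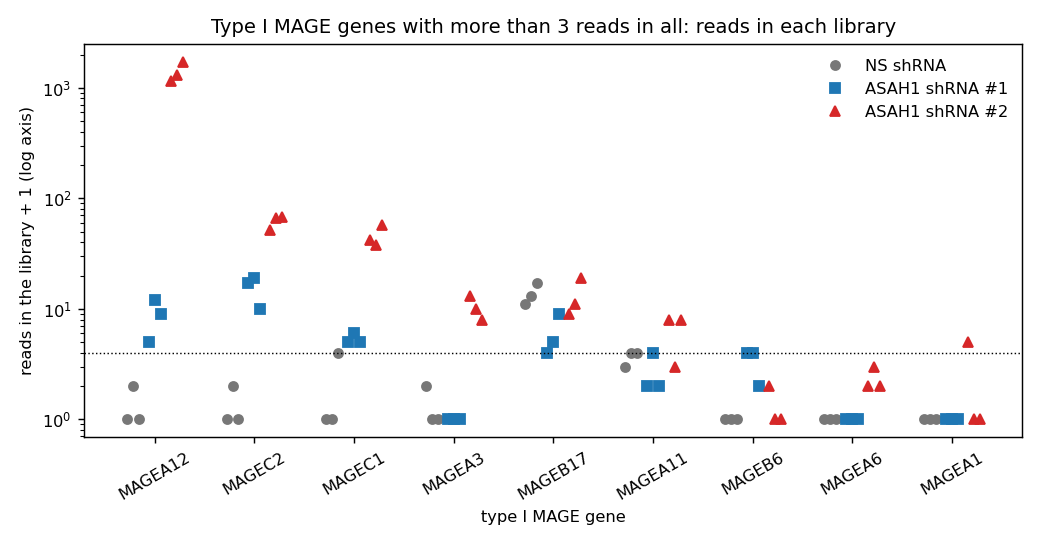
Reads in each library, plus 1, on a log axis for the 9 type I MAGE genes with more than 3 reads over all libraries. Each point is a library, and the dotted line marks 3 reads. MAGEA12 stands at 1151 to 1715 reads with ASAH1 shRNA #2 and at 0 or 1 read with NS shRNA, whereas the other type I genes stay below 70 reads.

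A short motif of 9 bases was seen in the promoters of these 3 genes when their sequences were read, so its choice followed the data. It begins with the core bases of an ETS family binding site (CCGGAT) and reads CCGGATGTG. The stretches that carry it upstream of or at the RefSeq gene start (GRCh38.p14, RefSeq promoter windows) are shown 5′ to 3′ on the gene's strand, the motif in capitals, for the 3 genes with the most reads with shRNA #2 and then for 4 genes listed at 7 reads or fewer in every library. Of these, MAGEA9 has few stretches that a read can place uniquely, so its count of 0 does not show that it stayed low.
MAGEA12 (chrX:152733733-152733761, plus strand): agtcacggggCCGGATGTGacgccactga
MAGEC1 (chrX:141903838-141903880, plus strand): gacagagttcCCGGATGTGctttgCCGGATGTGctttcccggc
MAGEC2 (chrX:142205280-142205308, minus strand): ggcagggttcCCGGATGTGctttcccgac
MAGEA11 (chrX:149712035-149712063, plus strand): ggcgtgggggCCGGATGTGacctccattg
MAGEA9 (chrX:149781900-149781928, plus strand): ggcttgggggCCGGATGTGacgtcactga
MAGEA4 (chrX:151912442-151912470, plus strand): cccaggtggcCCGGATGTGacatccctga
MAGEB2 (chrX:30215488-30215516, plus strand): ccacgggctgCCGGATGTGagtcatcctg
The motif began 14 bases before the gene start in MAGEA12, 8 bases before it in MAGEC2, and at 46 and 32 bases before it in MAGEC1.

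Promoter windows of 300 bases (250 before and 50 after the start) were found for 30 of the 37 entries. The motif, searched on both strands, was present in windows of 11 of 22 type I genes and of 0 of 8 type II genes, and in 0.339% of all 35116 windows. The members were counted per gene, with the motif in any of its windows, and the 0.339% per window, so the units differ. The motif was also picked from promoters of these members, so no excess over all windows is read from the counts. The 11 genes were MAGEA2, MAGEA2B, MAGEA4, MAGEA9, MAGEA9B, MAGEA11, MAGEA12, MAGEB1, MAGEB2, MAGEC1 and MAGEC2. They are paralogs, and some are near-identical copies, so these counts are not independent. MAGEA3 and MAGEA6 held instead the related letters CCGGAA, which occur in 17.2% of all windows. A promoter with the motif was shared by genes with very different read counts: MAGEA4 had 2 reads over all 9 libraries, and MAGEB1 and MAGEB2 had 1 each. Exons of MAGEB1 overlap MAGEB4 on the same strand, so some of its reads may have been dropped. A link between the motif and the reads was not tested. CpG dinucleotides, the sites of promoter methylation, numbered 1 to 21 in the type I windows (median 12.5 over 30 windows) and 9 to 26 in the type II windows (median 12 over 11 windows), beside a median of 14 over all windows. MAGEA12 held 9 and 15 CpG in its 2 windows, MAGEC1 held 14 and MAGEC2 held 10. Methylation was not measured in these libraries.

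The remaining type I genes had few reads. MAGEA3, whose protein activates the ligase TRIM28, had 1, 0 and 0 reads with NS shRNA, 0 in each library with ASAH1 shRNA #1, and 12, 9 and 7 reads with ASAH1 shRNA #2. All 3 libraries with shRNA #2 were above all others, and the pooled ratio to NS shRNA was 24.4 (counting interval 4.03 to 998). Its close paralog MAGEA6 had 1, 2 and 1 reads with shRNA #2 and none elsewhere, too few for a ratio. MAGEA11, which codes for a coregulator of the androgen receptor, had 2, 3 and 3 reads with NS shRNA, 1, 3 and 1 with shRNA #1 and 7, 2 and 7 with shRNA #2. These groups overlapped, and the ratio of shRNA #2 to NS shRNA was 1.74 (0.704 to 4.70), a difference that was not detectable at this depth. MAGEB6 had 3, 3 and 1 reads with shRNA #1, 1, 0 and 0 with shRNA #2 and none with NS shRNA, so no ratio is given. MAGEA1, the first tumour antigen of this family to be cloned, had 4 reads in 1 library with shRNA #2 and none in the other 8.

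MAGEB17 differed from the other type I genes in having more reads in the control cells. It had 10, 12 and 16 reads with NS shRNA, 3, 4 and 8 with ASAH1 shRNA #1, and 8, 10 and 18 with ASAH1 shRNA #2. With shRNA #1 its normalised count was 4.97 ± 2.39 (SD, n = 3) beside 12.3 ± 2.21 (SD, n = 3) with NS shRNA, and its mean was below the minimum for the test. With shRNA #2 the groups overlapped and the change did not pass the test (log2 fold change -0.30, 95% interval -1.07 to 0.47, adjusted p = 0.468 from limma).

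A count of 0 has different meanings across the family, because identical copies cannot be told apart by a read of 76 bases and htseq-count drops reads that fit 2 places. Of the 35 entries matched to the GENCODE annotation of hg38, 33 lie on the X chromosome, with MAGEF1 on chromosome 3 and MAGEL2 on chromosome 15. The exons of MAGEA2, MAGEA2B, MAGED4 and MAGED4B held 0% unique windows of 76 bases, and those of MAGEA9 and MAGEA9B held 9.55% and 9.37%. All 6 genes had no read in any library, and their expression cannot be judged here. MAGEA3 and MAGEA6 held 56.8% and 55.2%, so their counts miss reads from shared stretches. MAGEA12 held 94.4%, though some of its exons overlap the entry CSAG4 on the same strand, and reads in that overlap were dropped as well. MAGEC1, MAGEC2 and MAGEB17 held 99.9% to 100%. Of the 29 matched entries with at least 50% unique windows, 6 had no read: MAGEA8, MAGEB10, MAGEB16, MAGEC3, MAGEE2 and MAGEL2. A count of 0 in a library of this depth allows up to 3 reads.

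**Figure D2:**
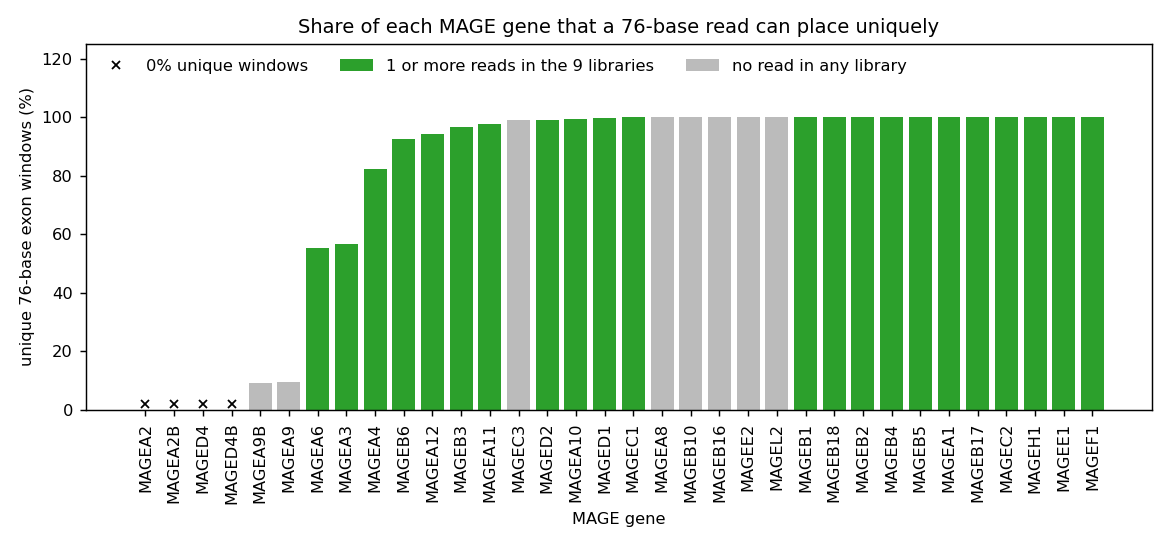
Share of 76-base exon windows that occur once in hg38 for each of the 34 single MAGE genes matched to the annotation, in percent. Green bars are genes with at least 1 read, grey bars genes without one, and crosses genes at 0%. The 6 genes below 10% all had no read.

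Of the 9 type II genes, 5 had reads in every library, and these were lower with knockdown, except MAGEF1 with ASAH1 shRNA #2. With ASAH1 shRNA #1, 5 of the 5 tested type II genes fell, and 33.3% of all 14341 tested genes were called lower and 32.8% higher. With ASAH1 shRNA #2, 4 of 5 fell, and 33.4% of all 14250 tested genes were called lower. The median log2 fold change of the 5 was -1.14 with shRNA #1 and -0.67 with shRNA #2, beside 0.0013 and 0.013 over all tested genes. No type I gene reached the minimum mean count in the comparison with shRNA #1. In the comparison with shRNA #2, 4 of them reached it.

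MAGED1 (ENSG00000179222, chromosome X from 51803007 to 51902354), also called NRAGE, codes for an adaptor of the neurotrophin receptor NGFR that is linked to cell death. It stood at 138, 141 and 124 CPM with NS shRNA, 59.8, 59.7 and 63.8 with ASAH1 shRNA #1, and 87.3, 76.8 and 88.3 with ASAH1 shRNA #2. All 3 groups were separate, with shRNA #1 lowest. In the deposited normalised counts it stood at 4462 ± 274 (SD, n = 3) with NS shRNA and at 2017 ± 72.9 (SD, n = 3) with shRNA #1. The log2 fold change with shRNA #1 was -1.14 (SE 0.06, adjusted p = 2.82e-07 from limma). With shRNA #2 the log2 fold change was -0.67 (SE 0.07, adjusted p = 1.60e-05 from limma).

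MAGED2 (ENSG00000102316, chromosome X from 54807599 to 54816015), whose loss causes a transient antenatal Bartter syndrome, was the most abundant member. It stood at 246, 246 and 230 CPM with NS shRNA, 138, 140 and 157 with ASAH1 shRNA #1, and 193, 178 and 205 with ASAH1 shRNA #2. The groups were separate in the same order as for MAGED1. The log2 fold change was -0.74 with shRNA #1 (SE 0.06, adjusted p = 3.90e-06) and -0.32 with shRNA #2 (SE 0.06, adjusted p = 0.000977, both from limma).

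MAGEE1 (ENSG00000198934, chromosome X from 76427710 to 76431342), a gene of 1 exon whose protein binds dystrobrevin, had the largest fall of the 5 with shRNA #1. It stood at 11.4, 13.2 and 12.9 CPM with NS shRNA, 3.32, 4.32 and 4.26 with ASAH1 shRNA #1, and 7.59, 7.17 and 6.61 with ASAH1 shRNA #2. Each group was separate from both others. The normalised count was 68.4% lower with shRNA #1 (log2 fold change -1.66, SE 0.12, adjusted p = 2.51e-06) and 42.7% lower with shRNA #2 (log2 fold change -0.80, SE 0.10, adjusted p = 3.77e-05, both from limma).

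MAGEH1 (ENSG00000187601, chromosome X from 55452127 to 55453566) stood at 3.00, 3.14 and 3.18 CPM with NS shRNA, 1.50, 1.07 and 1.52 with ASAH1 shRNA #1, and 1.02, 1.00 and 1.23 with ASAH1 shRNA #2. Both knockdown groups lay below the controls and overlapped each other. The log2 fold change was -1.20 with shRNA #1 (SE 0.17, adjusted p = 0.000183) and -1.50 with shRNA #2 (SE 0.16, adjusted p = 1.43e-05, both from limma).

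MAGEF1 (ENSG00000177383, chromosome 3 from 184710364 to 184712064), the only one of the 5 that is not X-linked, codes for a partner of the ligase NSMCE1 in the turnover of the iron-sulfur assembly factor MMS19. It stood at 61.9, 57.5 and 52.0 CPM with NS shRNA, 41.0, 41.9 and 49.7 with ASAH1 shRNA #1, and 59.1, 52.9 and 64.1 with ASAH1 shRNA #2. The shRNA #1 libraries lay below the controls, whereas the shRNA #2 libraries overlapped them. The log2 fold change was -0.38 with shRNA #1 (SE 0.09, adjusted p = 0.00350 from limma). With shRNA #2 it did not pass the test, at 0.04 (95% interval -0.15 to 0.23, adjusted p = 0.673 from limma), and its sign changed under another scaling.

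**Figure D3:**
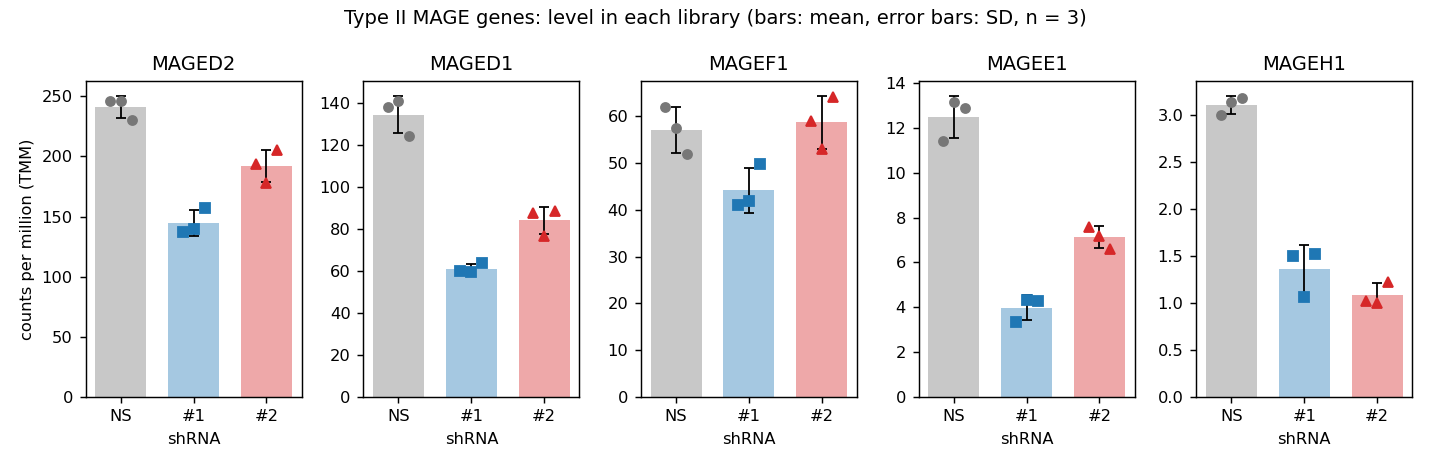
CPM (TMM scaled) of the 5 expressed type II MAGE genes in each library, by shRNA. Points are libraries, bars are means and error bars are SD (n = 3). MAGED1, MAGED2 and MAGEE1 are highest with NS shRNA and lowest with shRNA #1, MAGEH1 is low with both hairpins, and MAGEF1 is low with shRNA #1 alone, from 41.0 to 49.7 CPM.

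The 3 type I genes called with ASAH1 shRNA #2 had the highest changes of the family, with log2 fold changes of 9.97 for MAGEA12, 5.50 for MAGEC2 and 4.73 for MAGEC1 on the log2(normalised count + 1) scale. These sizes depend on the added count, because the controls were near 0. The 3 genes met the minimum mean count only through the shRNA #2 libraries, so they could enter the test only by differing, and their calls are given as a description beside the 33.5% of all tested genes called higher. By log2 fold change MAGEA12 ranked 1 of 14250 tested genes, MAGEC2 ranked 7 and MAGEC1 ranked 13.

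**Figure D4:**
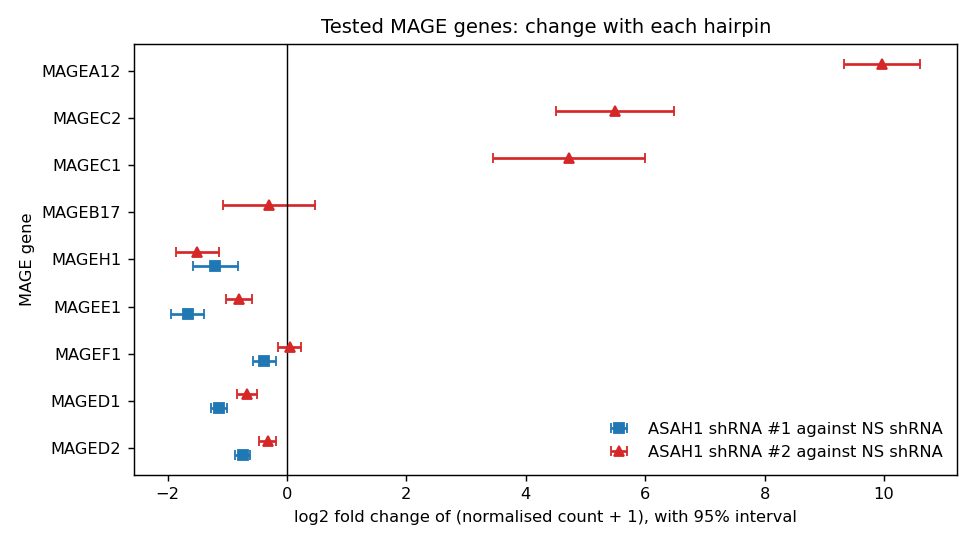
Log2 fold change against NS shRNA with its 95% interval for each MAGE gene that reached the minimum mean count, with ASAH1 shRNA #1 in squares and shRNA #2 in triangles. The 5 type II genes lie between -1.66 and 0.04, and MAGEC1, MAGEC2 and MAGEA12 lie between 4.73 and 9.97.

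The hairpins were also compared with each other in all 9 libraries by edgeR's quasi-likelihood test, since both comparisons above share the NS shRNA libraries. Of the 8 members tested, 7 were higher with ASAH1 shRNA #2 than with shRNA #1, and 31.4% of all 14381 tested genes were called higher and 32.5% lower. All of these members but MAGEF1 are X-linked. Of 457 tested X-linked genes outside the family, 46.4% were called higher and 21.2% lower in this comparison. On the log2 scale, shRNA #2 exceeded shRNA #1 by 7.25 for MAGEA12 (adjusted p = 2.11e-11), 3.10 for MAGEC1 (adjusted p = 3.78e-05) and 1.85 for MAGEC2 (adjusted p = 0.000222). Here too MAGEA12, MAGEC1 and MAGEC2 reached the minimum only through the shRNA #2 libraries, so their calls are a description. Among type II genes the log2 ratio was 0.82 for MAGEE1, 0.46 for MAGED1, and 0.41 for both MAGED2 and MAGEF1, with adjusted p from 7.60e-05 to 0.00261. Thus MAGED1, MAGED2 and MAGEE1 were lower than in the controls with both hairpins and fell less with shRNA #2. MAGEH1 did not pass this test, with a log2 ratio of -0.30 (adjusted p = 0.179), which ran from -0.47 to -0.20 when single libraries were left out. For ASAH1 itself the same log2 ratio was -0.89, with less left under shRNA #2 (adjusted p = 6.84e-08). The hairpin sequence and the remaining ASAH1 level differ together between these groups and cannot be told apart.

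Levels were set side by side per kilobase of exon, as CPM per kilobase. The length was that of all GENCODE exons of a gene merged, such as 6013 bases for MAGED1 and 1965 for MAGEA12. The reads were counted on UCSC annotation, so the order of genes depends on the length chosen. In CPM alone, MAGED1 (mean 134) stood above MAGEF1 (57.1) with NS shRNA. With NS shRNA the order was MAGED2 (81.9 ± 3.16), MAGEF1 (33.6 ± 2.91), MAGED1 (22.3 ± 1.48), MAGEE1 (3.44 ± 0.256) and MAGEH1 (2.16 ± 0.0654, SD, n = 3 for each), with no overlap between neighbours. MAGEB17 followed at 0.230 ± 0.0401 (SD, n = 3), and MAGEA12, MAGEC1 and MAGEC2 were each at or below 0.0195 in every control library. With ASAH1 shRNA #2, MAGEA12 stood at 18.0 ± 0.681 (SD, n = 3). Its range of 17.5 to 18.8 per kilobase lay below MAGEF1 (31.1 to 37.7) and above MAGED1 (12.8 to 14.7), making it the third member in that order. Its place above MAGED1 rests on the length, because in CPM MAGEA12 (mean 35.4) lay below MAGED1 (84.2) with shRNA #2. MAGEC2 (0.723 to 0.882) overlapped MAGEH1 (0.695 to 0.852) in these cells. With shRNA #1, MAGEE1 (0.914 to 1.19) and MAGEH1 (0.741 to 1.05) overlapped.

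The genes around the responding members were then examined. CSAG1, a cancer-testis gene that starts 22 bases from MAGEA12 on the opposite strand, followed the same pattern, with 1, 1 and 0 reads with NS shRNA, 4, 4 and 5 with ASAH1 shRNA #1, and 440, 508 and 718 with ASAH1 shRNA #2. Between the hairpins its log2 ratio was 6.73 (edgeR, adjusted p = 5.17e-10). CSAG1 also reached the minimum only with shRNA #2. Within 1 Mb of MAGEA12 lay 37 other entries of the files, of which 13 were tested with shRNA #2. Apart from CSAG1, their log2 fold changes ran from -1.06 for the creatine transporter gene SLC6A8 to 0.70 for the centrin gene CETN2. MAGEA2 and MAGEA2B, the MAGE copies about 20 kb away, cannot be counted, and MAGEA3 and MAGEA6, at 35.0 and 36.0 kb, had the few reads given above.

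**Figure D5:**
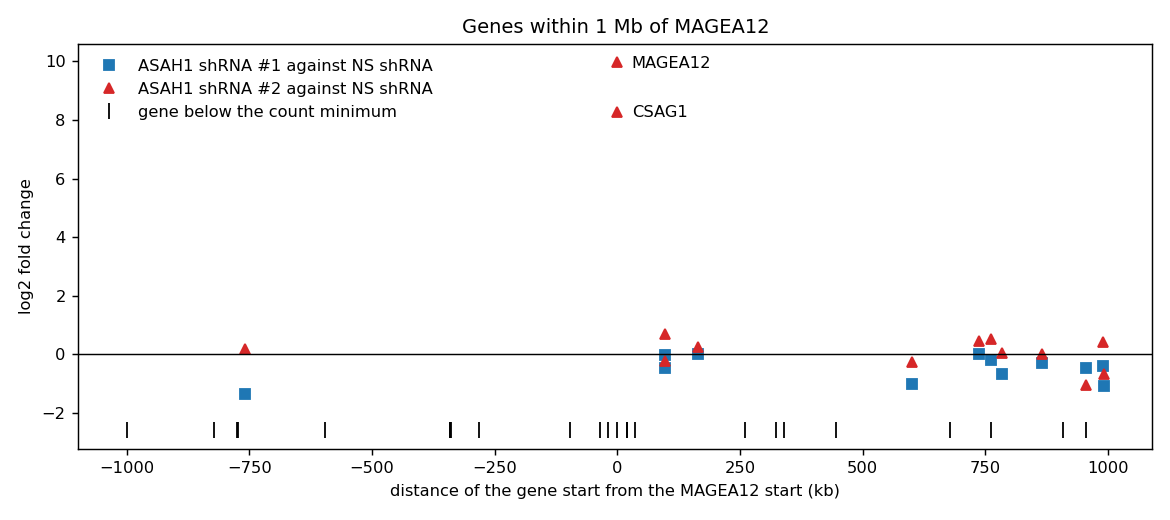
Log2 fold change of each tested gene within 1 Mb of MAGEA12, by the distance of its start in kb, for both hairpins. Ticks at the bottom mark genes below the minimum mean count. MAGEA12 at 9.97 and CSAG1 at 8.28 stand apart, and the other tested genes lie between -1.37 and 0.70.

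MAGEC1 and MAGEC2 are 301.4 kb apart in Xq27. The gene between the SPANX copies of that region, LDOC1, which codes for a nuclear leucine zipper protein, went the other way, with a log2 fold change of -2.17 with ASAH1 shRNA #1 (adjusted p = 1.10e-07) and -5.37 with shRNA #2 (adjusted p = 7.11e-09, both from limma). The sperm protein genes SPANXB1 and SPANXC, at 901.3 and 661.4 kb from MAGEC1, are described with the cancer-testis genes. The X chromosome as a whole was not level with the others in these libraries. With shRNA #1, 45% of 456 tested X-linked genes outside the family were called lower and 24.8% higher, beside 33.4% and 33% of 13447 genes elsewhere. With shRNA #2, 27.9% were called lower and 36% higher, beside 33.8% and 33.8% of 13370 genes elsewhere. Between the hairpins, 21.2% of 457 were called lower with shRNA #2 and 46.4% higher, beside 32.7% and 31.4% of 13481 genes elsewhere. The part of this shift in the type II results, 4 of them on the X chromosome, was not tested.

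Other cancer-testis genes were read beside the family. Of 93 X-linked cancer-testis genes outside the family that the files list, 81 had at most 3 reads in every library. Many of these belong to families of similar copies, such as GAGE, CT45 and CT47. Reads that fit more than 1 copy were dropped, and unique windows were not computed for these genes. Their low counts therefore do not show that they were silent. With ASAH1 shRNA #1, 3 of 6 tested rose and 3 fell, and with shRNA #2, 1 of 7 rose (CSAG1) and 4 fell, with median log2 fold changes of -0.11 and -1.56. CSAG1 entered that test only through its shRNA #2 reads. Of all genes tested, 32.8% were called higher and 33.3% lower with shRNA #1, and 33.5% and 33.4% with shRNA #2. SPANXB1 had 162, 167 and 144 reads with NS shRNA, 276, 404 and 415 with shRNA #1, and 24, 44 and 61 with shRNA #2. Its log2 fold change was 1.23 with shRNA #1 (adjusted p = 1.75e-05) and -2.13 with shRNA #2 (adjusted p = 1.28e-05, both from limma). SPANXC, a close copy for which unique windows were not computed either, gave 1.37 and -1.56. PAGE5 fell with both hairpins (log2 fold changes -1.04 and -3.31), from 75, 81 and 82 reads with NS shRNA to 4, 10 and 13 with shRNA #2. DDX53, a DEAD-box gene, gave -4.02 and -2.50. It had 20, 36 and 50 reads with NS shRNA, 0, 1 and 4 with shRNA #1 and 6, 4 and 8 with shRNA #2. DDX53, and PAGE5 with shRNA #2, reached the minimum mean only through the NS shRNA libraries. These falls are therefore a description, and their sizes depend on the added count. Of 29 autosomal cancer-testis genes, 9 were tested. With shRNA #1, 4 rose and 3 fell, and with shRNA #2, 1 rose and 4 fell, beside the same shares of all genes, so these counts are not a result about the list. ZNF165 rose by a log2 fold change of 1.55 with shRNA #1 and gave -0.36 with shRNA #2 (adjusted p = 0.0577), and the midbody gene CEP55 fell with both (-0.22 and -1.10). LY6K rose with shRNA #2, at 0.87, beside -0.07 with shRNA #1 (adjusted p = 0.648), a difference that passed the test between hairpins (adjusted p = 4.71e-05 from edgeR). The mitotic gene OIP5 fell with both (-0.36 and -0.39). PRAME had at most 6 reads in a library and CTCFL, the testis paralog of CTCF, at most 1.

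Genes for proteins that MAGE proteins bind or act on were taken from a list of 18, of which 15 were tested. With ASAH1 shRNA #1, 2 rose and 8 fell (median log2 fold change -0.28), and with shRNA #2, 3 rose and 5 fell (median -0.05). Of all genes tested, 32.8% were called higher and 33.3% lower with shRNA #1, and 33.5% and 33.4% with shRNA #2, so the counts are not a result about the list. TRIM28, the ligase bound by MAGEA3 and MAGEC2, stood at a mean of 475 CPM with NS shRNA, 345 with shRNA #1 and 419 with shRNA #2. It fell by 0.47 with shRNA #1 (adjusted p = 6.50e-05) and gave -0.18 with shRNA #2 (adjusted p = 0.0582, both from limma). TRIM27, the ligase of MAGEL2, rose by 0.40 with shRNA #1 (adjusted p = 9.26e-05) and gave 0.09 with shRNA #2 (adjusted p = 0.219). NGFR, the neurotrophin receptor bound by MAGED1, had 270, 289 and 252 reads with NS shRNA, 145, 277 and 280 with shRNA #1 and 2232, 2175 and 3281 with shRNA #2. It rose by 3.03 on the log2 scale with shRNA #2 (adjusted p = 7.11e-09) and gave -0.23 with shRNA #1 (adjusted p = 0.163, both from limma), in libraries where MAGED1 fell. The ligase gene LNX1 fell with both hairpins (-1.41 and -0.62). PJA1, a ligase gene linked to MAGED1, fell by 0.53 with shRNA #1 and gave -0.05 with shRNA #2 (adjusted p = 0.505).

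In the SMC5/6 DNA repair complex, where NSMCE3 is the MAGE subunit, NSMCE3 (listed under its older symbol NDNL2) stood at 25.3 ± 0.565 (SD, n = 3) CPM with NS shRNA, 16.9 ± 0.688 (SD, n = 3) with ASAH1 shRNA #1 and 22.6 ± 0.897 (SD, n = 3) with ASAH1 shRNA #2. It fell by 0.59 with shRNA #1 (adjusted p = 2.96e-05) and gave -0.16 with shRNA #2 (adjusted p = 0.0645, both from limma). Its RING partner NSMCE1 gave 0.02 and 0.10 (adjusted p = 0.908 and 0.501), and NSMCE4A fell with both hairpins (-0.28 and -0.70). SMC6 rose with shRNA #1 (0.26, adjusted p = 0.00559) and fell with shRNA #2 (-0.26, adjusted p = 0.00731), and SMC5 fell with shRNA #1 (-0.35, adjusted p = 0.00359) and gave 0.11 with shRNA #2 (adjusted p = 0.303, all from limma). NDN had 1 read in all 9 libraries.

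Genes of DNA methylation and silencing, the layer that is known to keep type I genes off, were taken from a list. Of 31 listed, 30 were tested. With ASAH1 shRNA #1, 8 rose and 14 fell (median log2 fold change -0.11), and with shRNA #2, 12 rose and 8 fell (median 0.12), beside the 32.8% higher and 33.3% lower of all genes tested with shRNA #1 and the 33.5% and 33.4% with shRNA #2. Nothing particular to the list is read from these counts. DNMT3B, a de novo methyltransferase, had 284, 269 and 311 reads with NS shRNA, 278, 494 and 374 with shRNA #1 and 112, 118 and 147 with shRNA #2. It rose by a log2 fold change of 0.41 with shRNA #1 (adjusted p = 0.00189) and fell by 1.38 with shRNA #2 (adjusted p = 1.29e-06), and its log2 ratio between the hairpins was -1.82 (edgeR, adjusted p = 2.20e-08). DNMT1, the maintenance methyltransferase, gave 0.06 with shRNA #1 (adjusted p = 0.351) and rose by 0.35 with shRNA #2 (adjusted p = 0.000439, both from limma). TET3, which oxidises methylcytosine, rose by 1.31 and 1.29, TET1 fell (-1.20 and -0.91), and EHMT2, a histone H3 lysine 9 methyltransferase, fell (-0.999 and -0.63). The part of these genes in the type I reads was not tested.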

How the data were processed

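RNA of 9 MDA-MB-231 libraries was made from oligo-dT selected RNA as strand-specific libraries, per the labels, although the series' design text names ribosomal RNA depletion. According to the submitters' processing notes and the methods, the authors used Trimmomatic 0.36 for trimming, STAR 2.7.1a for alignment to hg38, htseq-count on UCSC annotation (reverse strand) for counting and DESeq2 1.28 for each hairpin with NS shRNA. A second methods paragraph gives Bowtie2, RSEM, TMM and edgeR instead. The deposited signal per gene and library is a read count divided by a size factor. Also deposited by the authors are a log2 fold change with its error, a Wald score and a p-value with its adjustment, which were not used.

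All values were whole numbers of reads (within 0.1) divided by 1 factor per library, so reads were recovered, and 0 per-sample columns lacked a sample. Each hairpin was compared with NS shRNA within its table by limma 3.58.1 with a trend on log2(value + 1) for genes whose mean reached 10, two-sided, Benjamini-Hochberg adjusted at 0.05 over all tested genes. The hairpins were compared by edgeR 4.0.16 (quasi-likelihood, TMM) on recovered reads, with all 9 libraries in 1 fit. All fits were tested on simulated data. Pooled read ratios carry 95% exact conditional binomial intervals, and the floor is 3 reads per library. Intervals and floors cover counting error only, and depth limits genes near the floor. Positions and lengths came from GENCODE 44 and promoters from RefSeq. R 4.3.3, DESeq2 1.42.0 (alternative) and Python 3.11.15 were used. NSMCE3 was read as NDNL2 and TASOR as FAM208A.

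The members, the gene lists and the rule for named genes were chosen with earlier results of these data known. Named were members with a mean of at least 10 in either comparison, ASAH1, up to 4 called genes per list with the largest mean change, and 10 partner or regulator genes. LDOC1, SLC6A8, CETN2, SMC5, SMC6, MAGEA3 and other genes outside this rule were named after their values were seen. A gene covered by this rule is not reported here.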

Additional observations from a re-analysis of the deposited data

Results flagged for a closer look

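For 7 MAGE genes the change against NS shRNA differed between the hairpins, by edgeR's quasi-likelihood test of ASAH1 shRNA #2 against ASAH1 shRNA #1. Of all 14381 genes tested in this way, 31.4% were called higher with shRNA #2 and 32.5% lower. The log2 ratios were 7.25 for MAGEA12, 3.10 for MAGEC1, 1.85 for MAGEC2, 0.82 for MAGEE1, 0.46 for MAGED1, 0.41 for MAGED2 and 0.41 for MAGEF1, all toward more RNA with shRNA #2. All 3 libraries with shRNA #2 lay above all 3 with shRNA #1 for each of these genes. They were picked by that test, and the share of all genes separated in this way was not counted, so the separation is a description. MAGEA12, MAGEC1 and MAGEC2 met the minimum mean only through the shRNA #2 libraries, so they could enter the test only by differing, and their ratios are a description. Groups of 3 libraries were not examined for single outlying values.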

How the results depend on the processing

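The number of MAGE genes called with ASAH1 shRNA #1 was 5 of 5 tested. With no filter it became 10 of 19 (4 higher, 6 lower), beside 4977 higher and 4811 lower of all 20684 genes. In 1 limma fit of all 9 libraries it became 8 of 8 (3 higher, 5 lower), beside 4659 higher and 4734 lower of all 14360 genes. Both settings admitted type I genes. In the fit of all 9 libraries, MAGEA12, MAGEC1 and MAGEC2 reached the minimum mean only through the shRNA #2 libraries. Their 3 higher calls with shRNA #1 are therefore a description. With the replicate block the count was 5. With shRNA #2 the count was 7 of 9 tested (7 with the block), and between the hairpins 7 of 8 (7 with the block). At a mean of at least 50 both counts were 5 of 6, with 1 higher and 4 lower with shRNA #2. All genes then gave 4453 higher and 4225 lower of 12352 with shRNA #2, and 4124 and 4119 of 12412 between hairpins. With no filter both counts were 8, of 20 with shRNA #2 and of 23 between hairpins. All genes then gave 4831 higher and 4933 lower of 20506, and 4677 and 4842 of 21177. Leaving out single libraries gave 5 with shRNA #1, 7 with shRNA #2 and 7 to 8 between hairpins. Same-numbered libraries did not deviate together (correlations from -0.316 to -0.0982). Deviations from means of only 3 libraries are bound to each other, so this cannot exclude that libraries were prepared in numbered sets. Of 22 member values, 21 stayed in the same direction and on the same side of the threshold under every alternative that gave a value. The exception was MAGEF1 with shRNA #2, at -0.0020 under upper quartile rescaling and from -0.023 to 0.12 with single libraries left out (-0.020 without NS shRNA replicate 3, -0.023 without ASAH1 shRNA #2 replicate 3). Depth limits the type I genes other than MAGEA12, MAGEC1 and MAGEC2.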
